A study of Mus musculus with 6 samples.

Results

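The genes described here were 9 genes of the innate sensors that build inflammasomes or recognize bacterial cell wall fragments inside the cell, among the 55421 genes counted in splenic monocytes. They were chosen by name, as members of these pathways. The sensors were Nlrp3, Nlrc4, Aim2, Nlrp1b and Mefv, the NOD receptors were Nod1 and Nod2, the adaptor was Pycard and the executor was Gsdmd. All 9 passed the filter on low counts and were among the 13849 genes tested.

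An inflammasome is a protein complex that forms when a sensor in the cytosol meets a danger or microbial signal. The sensor recruits the adaptor ASC, encoded by Pycard, which brings in caspase-1, and caspase-1 then matures IL-1β and IL-18 and cleaves gasdermin D, whose fragments open pores in the cell membrane. NOD1 and NOD2 bind peptidoglycan fragments and signal through the kinase RIPK2 to NF-κB rather than through caspase-1. Monocytes are a major source of IL-1β.

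RNA was sequenced from monocytes isolated from the spleens of 6 mice, 3 of the genotype IL-4Rα-/- and 3 IL-4Rα+/+, with 1 library per mouse. All mice were adult and of the C57BL/6 strain, and the labels named no treatment. The IL-4Rα-/- mice lacked the receptor subunit for IL-4 and IL-13 in every cell of the body and not only in monocytes, and the controls were wild-type littermates according to the study's methods. Sex was not given in the labels. The comparison asked how monocytes that cannot receive IL-4 differ in their transcripts.

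Between 26807281 and 29033297 reads per library were counted on genes. Levels are given as CPM, the counts of a gene scaled to libraries of the same total, after TMM normalization. The targeted gene, Il4ra, was measured at 137, 128 and 177 CPM in IL-4Rα+/+ replicates 1, 2 and 3 and at 27.9, 79.4 and 31.8 CPM in IL-4Rα-/- replicates 1, 2 and 3. The genotypes did not overlap for Il4ra, and IL-4Rα-/- replicate 2 kept the highest level among the knockouts. The summed level of 13 monocyte markers ranged from 19835 to 24201 CPM in IL-4Rα+/+ and from 21173 to 24813 CPM in IL-4Rα-/- libraries. Of the 13, 5 were higher and 8 lower in the knockout. Lyz2 alone held from 8847 CPM in IL-4Rα+/+ replicate 1 to 17025 CPM in IL-4Rα-/- replicate 2. Markers of other cells were also present, and 8 red pulp macrophage markers summed to 2736 to 3204 CPM in IL-4Rα+/+ against 3716 to 5863 CPM in IL-4Rα-/- libraries, with all 8 higher in the knockout. Erythroid markers (8 of 8 higher) summed to 49.9 to 97.1 against 133 to 319 CPM, and markers of basophils, mast cells and eosinophils (8 of 9 higher) to 77.5 to 91.1 against 133 to 211 CPM. Neutrophil markers (11 of 12 higher) overlapped, with 58.9 to 254 CPM in IL-4Rα+/+ and 122 to 634 CPM in IL-4Rα-/- libraries. Mmp8 alone held 170 CPM of this sum in IL-4Rα+/+ replicate 3 and 305 CPM in IL-4Rα-/- replicate 2. Ly6g had only 0 to 9 counts per library and Stfa2l1 0 to 4. B and plasma cell markers (7 of 8 higher) overlapped at 125 to 196 against 191 to 247 CPM. The sums for T and NK cells and for dendritic cells (3 of 8 higher in each list) overlapped as well. Pancreatic acinar markers (8 of 8 higher) summed to 275 CPM in IL-4Rα-/- replicate 2 and to 10.4 to 42.4 CPM in the other 5 libraries. The part of these other cells in the results for the sensor and pathway genes was not tested. Xist, which is transcribed from the inactive X chromosome, was at 553 CPM in IL-4Rα+/+ replicate 1 and 457 CPM in IL-4Rα-/- replicate 3, and at 3.73 CPM or less in the other 4 libraries.

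IL-4Rα signals through STAT6, which binds a palindrome made of TTC and GAA separated by 4 bases, while the other STAT proteins prefer a gap of 3 bases. Both spacings were searched in the promoters of the genes, taken from RefSeq on GRCm38.p6 as the 250 bases before and 50 bases after each annotated start. The search is the same on both strands since the motif is its own reverse complement. There were 11 such windows for 8 of the 9 genes, and Gsdmd had none. The 4-base spacing was in 1 window of Nlrp1b and 1 of Nlrp3, against 6.95% of all 32851 windows, and the 3-base spacing was in 1 window of Nod1, against 8.3% of all windows. The 250 bases before the start of those windows are given 5′ to 3′ on the gene's strand, because they hold a match to a STAT palindrome. Capitals mark the palindrome with its gap.
Nlrp1b, chr11:71201457-71201706, minus strand: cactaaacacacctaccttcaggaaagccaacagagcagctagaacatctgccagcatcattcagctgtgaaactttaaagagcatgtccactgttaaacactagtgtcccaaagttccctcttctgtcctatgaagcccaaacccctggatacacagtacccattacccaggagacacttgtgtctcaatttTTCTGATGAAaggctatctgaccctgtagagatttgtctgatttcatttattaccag
Nlrp3, chr11:59542436-59542685, plus strand: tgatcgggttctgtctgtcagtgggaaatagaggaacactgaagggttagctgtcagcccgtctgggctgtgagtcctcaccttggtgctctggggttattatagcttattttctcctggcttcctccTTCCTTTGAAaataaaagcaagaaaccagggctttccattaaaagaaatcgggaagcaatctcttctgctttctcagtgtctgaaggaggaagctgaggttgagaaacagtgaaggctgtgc
Nod1, chr6:54971662-54971911, minus strand: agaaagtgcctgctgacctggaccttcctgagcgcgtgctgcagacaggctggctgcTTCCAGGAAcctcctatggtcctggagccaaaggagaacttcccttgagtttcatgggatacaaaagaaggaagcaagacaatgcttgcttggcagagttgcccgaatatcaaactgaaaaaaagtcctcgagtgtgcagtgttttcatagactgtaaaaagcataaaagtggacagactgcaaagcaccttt
The palindrome began 57 bases before the annotated start in Nlrp1b, 122 bases before it in Nlrp3 and 193 bases before it in Nod1. Nlrp1b, Nlrp3 and Nod1 each had a further annotated start without a match. No match was present in the windows of Aim2, Mefv, Nlrc4, Nod2 and Pycard. Whether any factor binds these letters was not measured here.

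None of the 9 genes was called different between the genotypes. Nlrp1b and Pycard had the largest differences, both lower in IL-4Rα-/- monocytes, at 0.696 and 0.596 times the IL-4Rα+/+ level, and neither passed the test after adjustment. The other 7 genes differed by no more than 0.27 on the log2 scale. At an adjusted p under 0.15, the study's threshold, edgeR's quasi-likelihood test called 0 of 13849 genes (0%) and 0 of the 9, and 1 of the 9 had an unadjusted p under 0.05. Among all genes 4.37% were lower and 3.72% higher at that unadjusted p. DESeq2 called 80 of 14003 genes (0.571%) and 0 of the 9, and 2 of the 9, both lower, had an unadjusted p under 0.05 there, against 4% of all genes lower and 4.07% higher. The CPM ranges of the genotypes overlapped for each of the 9 genes. Over all genes they lay apart in 7.87% with lower and 7.63% with higher levels in the knockout, small shares for a list of 9. Of the 9 genes, 8 had a fitted log2 fold change below 0 and 1 above, with a median of -0.19, against 48.5% below 0 and a median of 0.01 over all genes tested. In RNA from whole samples, fewer cells of a type and less RNA per cell cannot be told apart.

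**Figure D1:**
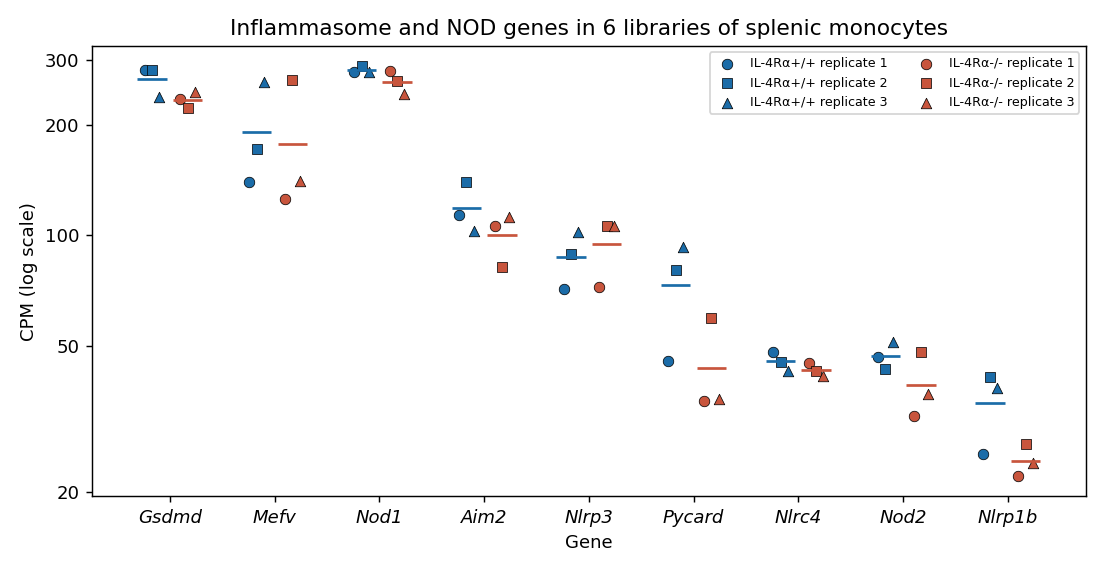
CPM on a log axis for each of the 9 genes, with 1 point per library (blue IL-4Rα+/+, red IL-4Rα-/-, marker shape for the replicate) and a line at the mean of 3 libraries. The points of the genotypes overlap for every gene, and for Nlrp1b and Pycard IL-4Rα+/+ replicate 1 lies among the knockouts.

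Pycard (ENSMUSG00000030793.4, chromosome 7, 127989708 to 127993867, minus strand, GRCm38) encodes ASC, the adaptor that most inflammasome sensors need to reach caspase-1. Its level was 45.5, 80.6 and 93.1 CPM in IL-4Rα+/+ replicates 1, 2 and 3 and 35.4, 59.4 and 35.9 CPM in IL-4Rα-/- replicates 1, 2 and 3. IL-4Rα+/+ replicates 2 and 3 were above all knockouts, while IL-4Rα+/+ replicate 1 was below IL-4Rα-/- replicate 2. The means were 73.1 ± 24.7 CPM (SD, n = 3) and 43.6 ± 13.7 CPM (SD, n = 3), and the log2 fold change was -0.75 (SE 0.31, 95% interval -1.50 to 0.00, edgeR adjusted p = 0.618). DESeq2 gave an adjusted p of 0.424. An exact permutation test over the 20 labelings gave p = 0.2, where 0.1 is the smallest it can give. Without IL-4Rα+/+ replicate 3 the log2 fold change was -0.53, and without IL-4Rα-/- replicate 2 it was -1.03. Pycard overlaps the antisense gene Gm45205, which held 0 to 5 counts per library. Pycard lies 2.41 Mb from Il4ra, the locus that was altered. Of the 142 genes tested within 5 Mb of Il4ra, 61 had a log2 fold change above 0 and 81 below, with a median of -0.04. DESeq2 called 3 of these 142 genes, against 78 of the 13849 genes tested in edgeR. Whether the position near Il4ra bears on Pycard was not tested.

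Gsdmd (ENSMUSG00000022575.5, chromosome 15, 75862327 to 75867408, plus strand) encodes gasdermin D, the pore former of pyroptosis. It was measured at 283, 282 and 238 CPM in IL-4Rα+/+ replicates 1, 2 and 3 and at 236, 222 and 246 CPM in IL-4Rα-/- replicates 1, 2 and 3. Only IL-4Rα+/+ replicate 3 lay within the range of the knockouts. The log2 fold change was -0.19 (SE 0.09, 95% interval -0.41 to 0.04, edgeR adjusted p = 0.63), so a fall of more than 0.41 or a rise of more than 0.04 was outside the interval.

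Nlrp1b (ENSMUSG00000070390.12, chromosome 11, 71153102 to 71230733, minus strand) encodes a sensor of microbial proteases. Its level was 25.4, 41.2 and 38.3 CPM in IL-4Rα+/+ replicates 1, 2 and 3 and 22.1, 26.9 and 23.9 CPM in IL-4Rα-/- replicates 1, 2 and 3. The knockouts lay close together, and of the controls only replicate 1 fell among them. The means were 35.0 ± 8.42 and 24.3 ± 2.43 CPM (SD, n = 3 each), with a log2 fold change of -0.52 (SE 0.19, 95% interval -0.97 to -0.07). The unadjusted p was 0.0292 in edgeR's test over all genes, the adjusted p was 0.618, and DESeq2 gave an adjusted p of 0.417. The exact permutation p was 0.2. Nlrp1b has a close paralog, Nlrp1a. Reads mapped to several places were left out, so reads that match both could have been lost, and both levels are uncertain. Nlrp1a was at 23.8, 34.1 and 48.6 CPM in IL-4Rα+/+ and 29.5, 51.5 and 32.7 CPM in IL-4Rα-/- replicates 1, 2 and 3, with a log2 fold change of 0.10 (95% interval -0.64 to 0.83).

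Nlrp3 (ENSMUSG00000032691.14, chromosome 11, 59541568 to 59566956, plus strand) encodes the sensor of potassium efflux and membrane damage and was the single gene of the 9 with a positive fold change. It stood at 71.3, 88.9 and 102 CPM in IL-4Rα+/+ replicates 1, 2 and 3 and at 72.4, 106 and 106 CPM in IL-4Rα-/- replicates 1, 2 and 3. Replicate 1 of each genotype was low, and of the other libraries both knockouts lay slightly above both controls. The fitted difference on the log2 scale was 0.12 (SE 0.19, 95% interval -0.34 to 0.58, edgeR adjusted p = 0.845). It was -0.01 without IL-4Rα+/+ replicate 1 and 0.28 without IL-4Rα-/- replicate 1, so the sign rested on single mice.

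Nlrc4 (ENSMUSG00000039193.9, chromosome 17, 74425438 to 74459142, minus strand) encodes the partner of the NAIP proteins, which detect flagellin and bacterial secretion systems. Its level varied least among the 9 genes, at 48.2, 45.1 and 42.6 CPM in IL-4Rα+/+ replicates 1, 2 and 3 and 45.0, 42.8 and 41.3 CPM in IL-4Rα-/- replicates 1, 2 and 3. The highest library was 1.17 times the lowest. The log2 fold change was -0.08 (SE 0.08, 95% interval -0.26 to 0.11, edgeR adjusted p = 0.766), the narrowest interval of the sensors.

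Aim2 (ENSMUSG00000037860.15, chromosome 1, 173350879 to 173466040, plus strand) encodes a sensor of double-stranded DNA in the cytosol. It was measured at 114, 140 and 103 CPM in IL-4Rα+/+ replicates 1, 2 and 3 and at 106, 82.0 and 112 CPM in IL-4Rα-/- replicates 1, 2 and 3. IL-4Rα+/+ replicate 2 was the highest library and IL-4Rα-/- replicate 2 the lowest, and the other 4 lay close together. Aim2 had a log2 fold change of -0.25 (SE 0.16, 95% interval -0.63 to 0.13, edgeR adjusted p = 0.662). It was -0.12 without IL-4Rα+/+ replicate 2 and -0.13 without IL-4Rα-/- replicate 2.

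Mefv (ENSMUSG00000022534.14, chromosome 16, 3707218 to 3718097, minus strand) encodes pyrin, an inflammasome sensor. Its level was 140, 172 and 262 CPM in IL-4Rα+/+ replicates 1, 2 and 3 and 126, 265 and 141 CPM in IL-4Rα-/- replicates 1, 2 and 3. IL-4Rα+/+ replicate 3 and IL-4Rα-/- replicate 2 stood high together, and the means were 191 ± 63.1 and 177 ± 76.3 CPM (SD, n = 3 each). The log2 fold change was -0.11 (SE 0.34), and its 95% interval of -0.93 to 0.71 was the widest of the 9 (edgeR adjusted p = 0.924). Leaving out 1 library moved it from -0.52, without IL-4Rα-/- replicate 2, to 0.19, without IL-4Rα+/+ replicate 3.

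Nod1 (ENSMUSG00000038058.14, chromosome 6, 54923949 to 54972612, minus strand) encodes the receptor for fragments of mainly Gram-negative peptidoglycan. It was at 279, 289 and 279 CPM in IL-4Rα+/+ replicates 1, 2 and 3 and at 280, 263 and 243 CPM in IL-4Rα-/- replicates 1, 2 and 3. IL-4Rα-/- replicates 2 and 3 lay below the controls and replicate 1 lay among them. Nod1 had a log2 fold change of -0.11 (SE 0.08, 95% interval -0.29 to 0.08, edgeR adjusted p = 0.692).

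Nod2 (ENSMUSG00000055994.15, chromosome 8, 88647315 to 88688474, plus strand) encodes the receptor for muramyl dipeptide, a fragment found in nearly all bacterial cell walls. It was at 46.7, 43.1 and 51.2 CPM in IL-4Rα+/+ replicates 1, 2 and 3 and at 32.1, 48.0 and 37.0 CPM in IL-4Rα-/- replicates 1, 2 and 3. IL-4Rα-/- replicate 2 lay among the controls and the other knockouts below them. Nod2 had a log2 fold change of -0.27 (SE 0.16, 95% interval -0.64 to 0.11, edgeR adjusted p = 0.652), and it was -0.44 without IL-4Rα-/- replicate 2 and -0.15 without IL-4Rα-/- replicate 1.

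**Figure D2:**
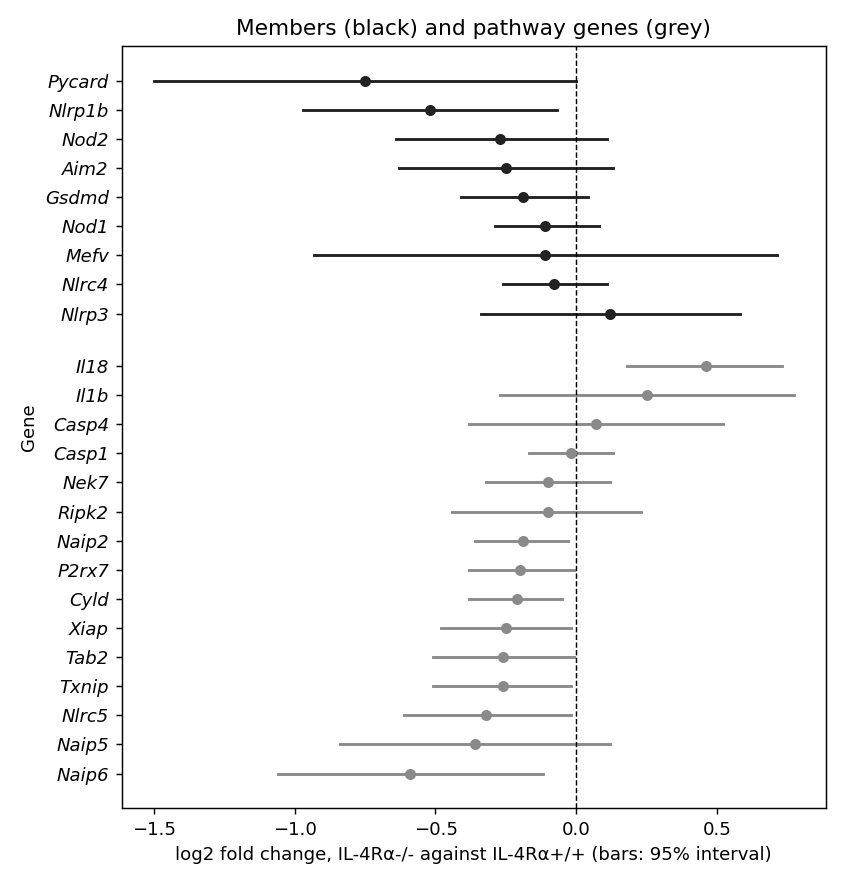
Log2 fold change of IL-4Rα-/- against IL-4Rα+/+ with its 95% interval from edgeR for the 9 genes (black) and the named pathway genes (grey). The interval of Nlrp1b ends below 0 before adjustment, that of Pycard ends at 0.00, and those of the other 7 span 0.

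The 9 genes differed widely in their spread between mice of 1 genotype. The within-genotype SD of log2 CPM was 0.07 for Nod1 and 0.08 for Nlrc4, at percentiles 11.6 and 12.5 of the genes tested. It was 0.49 for Pycard and 0.52 for Mefv, at percentiles 82.6 and 84.6. Gsdmd was at percentile 27.0, and Nod2, Aim2, Nlrp1b and Nlrp3 lay between percentiles 55.8 and 65.2. The fitted log2 fold change of Nlrp3 (0.12) and of Mefv (-0.11) was smaller than the within-genotype SD of that gene, and for Nlrc4 the values were alike in size.

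**Figure D3:**
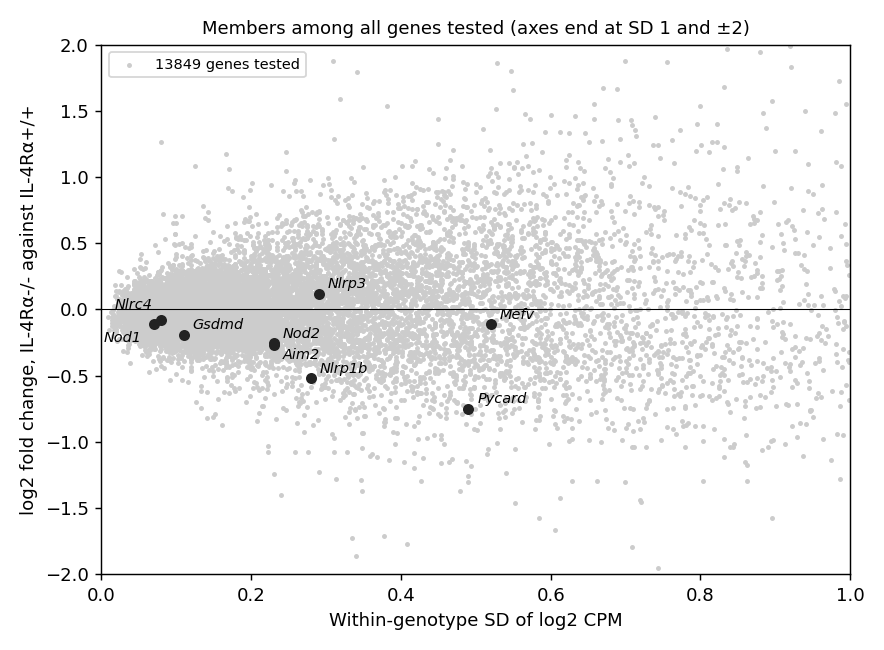
Log2 fold change against the within-genotype SD of log2 CPM for 13849 genes tested (grey) and the 9 genes (black, named), with axes ending at an SD of 1 and at ±2. Nod1 and Nlrc4 sit at the quiet end with SDs of 0.07 and 0.08, and Pycard and Mefv at SDs of 0.49 and 0.52 among the variable genes.

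Levels were compared between genes per kilobase of all annotated exons. Gsdmd was highest at 106 ± 10.7 CPM per kilobase (SD over 6 libraries), above all others in every library. Mefv (56.6 ± 19.4) and Nod1 (53.6 ± 3.26) followed and overlapped. Aim2 (31.3 ± 5.4) lay below both without overlap with Nod1. Nlrp3 (22.5 ± 4.01), Pycard (15.3 ± 6.34), Nlrc4 (9.19 ± 0.516), Nod2 (8.58 ± 1.44) and Nlrp1b (4.7 ± 1.28) came next in that order, each overlapping the gene before it. The executor was thus measured at a higher level per length than any sensor or the adaptor. The place of Pycard depended on the length used. Its annotated exons cover 3800 bases and its coding sequence 579 bases, and per kilobase of coding sequence it stood at 101 ± 41.6 CPM, level with Aim2 at 103 ± 17.8 and Nod1 at 95.3 ± 5.79. The coding length was tried after the values were seen. Gsdmd remained highest by coding length at 172 ± 17.3 and Nlrp1b lowest at 8.41 ± 2.28 CPM per kilobase.

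**Figure D4:**
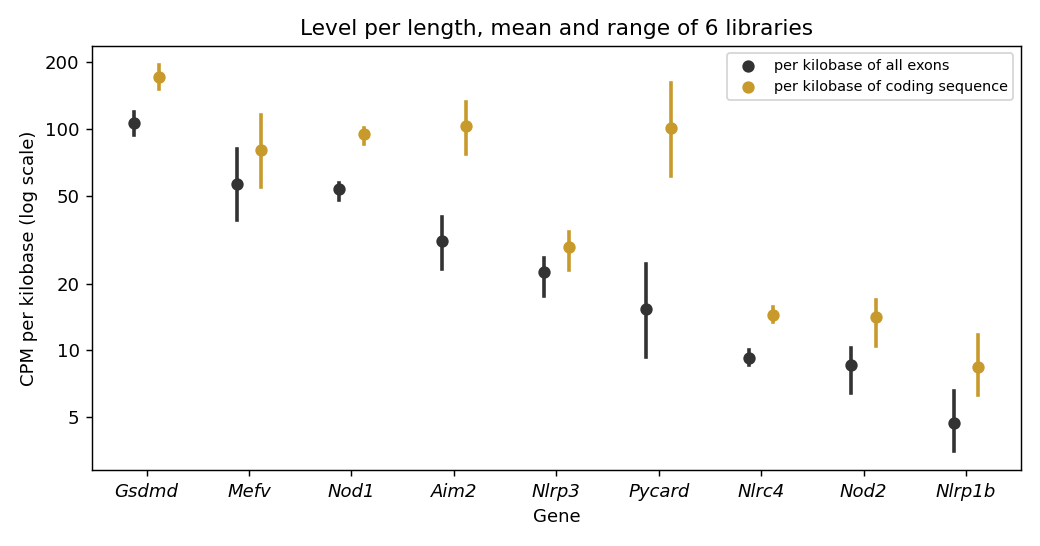
Mean (point) and range (bar) over 6 libraries of CPM per kilobase on a log axis, per length of all annotated exons (black) and per coding length (yellow). Gsdmd is highest and Nlrp1b lowest on both scales, and Pycard moves from 15.3 to 101.

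The levels were also set against the balance of monocyte subsets in the libraries. Splenic monocytes comprise Ly6C high cells, which express Ccr2 and Ly6c2, and Ly6C low cells, which express Nr4a1, Ace, Spn, Treml4, Cx3cr1 and Fcgr4. Chosen after the values were seen, the log2 ratio of the summed CPM of the Ly6C high to the Ly6C low genes was -3.47, -1.97 and -0.61 in IL-4Rα+/+ replicates 1, 2 and 3 and -2.03, 0.19 and -1.61 in IL-4Rα-/- replicates 1, 2 and 3. The genotypes overlapped in this ratio, and IL-4Rα+/+ replicate 3 and IL-4Rα-/- replicate 2 held the most Ly6C high signal. Ccr2 ranged from 380 CPM in IL-4Rα+/+ replicate 1 to 2008 CPM in IL-4Rα-/- replicate 2.

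Mefv and Nlrp3 tended to be higher where this ratio was higher, and Gsdmd, Nlrc4 and Aim2 lower, though no correlation held after adjustment. Over the 6 libraries, log2 CPM of Mefv had Pearson's r = 0.821 and Spearman's rho = 0.886 with the ratio (exact permutation p = 0.0389 and 0.0333). For Nlrp3 r was 0.814 and rho 0.943 (exact permutation p = 0.0514 and 0.0167). For Gsdmd r was -0.812 and rho -0.657 (exact permutation p = 0.0403 and 0.175), for Nlrc4 r was -0.775 and rho -0.714 (exact permutation p = 0.0722 and 0.136), and for Aim2 r was -0.655 and rho -0.714 (exact permutation p = 0.118 and 0.136). The other 4 genes had r between -0.301 and 0.409 over the 6 libraries, where both genotypes are pooled. Within IL-4Rα+/+ and within IL-4Rα-/- libraries (n = 3 each), r was 0.954 and 0.988 for Pycard and 0.806 and 0.977 for Nlrp1b. For Nod2 it was 0.504 and 0.984, and for Nod1 0.00933 and -0.112. In the same order, r was 0.976 and 0.999 for Mefv, 0.994 and 0.654 for Nlrp3, and -0.857 and -0.833 for Gsdmd. Nlrc4 had -1 and -0.274, weak within IL-4Rα-/-, and Aim2 had -0.277 and -0.938, weak within IL-4Rα+/+. These values within a genotype were not tested. Adjusted over the 9 genes, the smallest p-values were 0.154 for r and 0.15 for rho, so none held after adjustment. Without the libraries farthest from the median ratio, IL-4Rα+/+ replicate 1 and IL-4Rα-/- replicate 2, r was 0.873 for Mefv, 0.642 for Nlrp3, -0.423 for Gsdmd, -0.558 for Nlrc4 and -0.522 for Aim2. Within IL-4Rα+/+ mice, Mefv, Nlrp3 and Pycard were lowest in replicate 1 and highest in replicate 3, the same order as the ratio.

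With this ratio as a covariate in edgeR, also chosen after the values were seen, no gene was called, and 4 of the 9 genes had an unadjusted p under 0.05, all lower in the knockout. Among all 13849 genes, 5.37% were lower and 5.56% higher at that unadjusted p in the same fit. The log2 fold change was -1.05 for Pycard (adjusted p = 0.334), -0.66 for Nlrp1b (adjusted p = 0.39), -0.48 for Mefv (adjusted p = 0.396) and -0.39 for Nod2 (adjusted p = 0.42). For Nlrp3 it was -0.03, on the other side of 0 from the fit without the covariate. The covariate was computed from the same libraries and left 3 residual degrees of freedom.

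**Figure D5:**
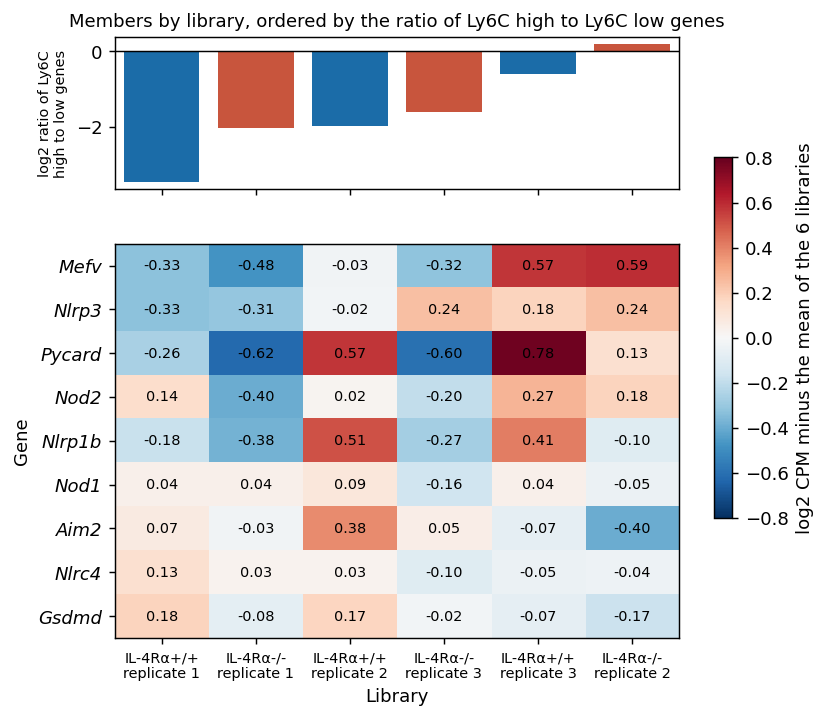
Upper panel: log2 ratio of summed CPM of Ly6C high to Ly6C low genes in each library, ordered from low to high (blue IL-4Rα+/+, red IL-4Rα-/-). Lower panel: log2 CPM of each of the 9 genes minus its mean over the 6 libraries, with the value in each cell. Mefv lies at 0.57 and 0.59 in the libraries with the highest ratio, where Gsdmd lies at -0.07 and -0.17.

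Among the 36 pairs of the 9 genes, 26 correlated positively and 10 negatively over the 6 libraries. Nlrp1b and Pycard were most alike, with r = 0.947 and rho = 0.943 (exact permutation p = 0.00417 and 0.0167), and r = 0.929 without the libraries farthest from the median. Aim2 and Gsdmd followed with r = 0.85 and rho = 0.886 (exact permutation p = 0.0111 and 0.0333, r = 0.79 without such libraries). Nlrp3 and Nlrc4 were most opposed with r = -0.886 and rho = -0.771 (exact permutation p = 0.0125 and 0.103, r = -0.911 without such libraries), and Nlrp3 and Nod1 had r = -0.582 and rho = -0.714 (exact permutation p = 0.225 and 0.136, r = -0.78 without such libraries). The smallest p-value adjusted over the 36 pairs was 0.15 for r and 0.462 for rho. The libraries of both genotypes are pooled in these values, so a gap between genotypes enters them.

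Of 49 further genes of the same pathways, 46 were tested. None was called by edgeR or DESeq2. In edgeR 19 had a log2 fold change above 0 and 27 below, with a median of -0.10. Of the 46, 1 higher and 8 lower genes had an unadjusted p under 0.05. Over all 13849 genes these were 515 higher (3.72%) and 605 lower (4.37%). The 9 pathway genes at that p became 3 with total counts only or with the replicate block. The ranges of the genotypes lay apart for 1 higher and 9 lower of the 46 genes. Over all 13849 genes they lay apart for 1056 higher (7.63%) and 1090 lower (7.87%). Nlrp6, Nlrp12 and Slc46a2 had too few counts for a test.

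Downstream of the sensors, neither caspase-1 nor its substrates passed the adjusted test. Casp1, the protease of the inflammasome, was at 147, 143 and 149 CPM in IL-4Rα+/+ and 143, 147 and 143 CPM in IL-4Rα-/- replicates 1, 2 and 3. These levels coincided, and the 95% interval of the log2 fold change ran from -0.17 to 0.13. Il18, whose product caspase-1 matures, was at 41.7, 51.1 and 49.2 CPM in IL-4Rα+/+ and 71.3, 66.2 and 57.4 CPM in IL-4Rα-/- replicates 1, 2 and 3. All knockouts were above all controls, with a log2 fold change of 0.46 (SE 0.12, 95% interval 0.18 to 0.73, edgeR adjusted p = 0.618, DESeq2 adjusted p = 0.203, exact permutation p = 0.1, the smallest possible). The red pulp macrophage markers also lay apart, at 3204, 2815 and 2736 CPM in IL-4Rα+/+ and 5863, 4041 and 3716 CPM in IL-4Rα-/- replicates 1, 2 and 3. The part of these cells in the level of Il18 was not tested. Il1b, the other main substrate, overlapped at 103, 74.9 and 115 against 108, 147 and 93.1 CPM, with a log2 fold change of 0.25 (95% interval -0.27 to 0.77). The decoy receptor gene Il1r2 had the largest fitted value, 2.30 (95% interval -0.83 to 5.43), which rested on 26.8 CPM in IL-4Rα-/- replicate 2 against 0.703 to 4.64 CPM elsewhere. In that library the neutrophil markers summed to 634 CPM, the highest of the 6, of which Mmp8 held 305 CPM and S100a8 91.3 CPM. The log2 ratio of Ly6C high to Ly6C low genes, 0.19, was also highest there. Which cells the Il1r2 reads came from was not tested. Casp4, the sensor of cytosolic lipopolysaccharide, had a log2 fold change of 0.07 (95% interval -0.38 to 0.52).

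Upstream of NLRC4, all 4 NAIP genes were fitted below 0, with a median log2 fold change of -0.47. Over all genes tested, 48.5% were below 0. Naip1 had the lowest counts of the 4, 16 to 128 per library. Its log2 fold change of -0.91 (SE 0.76, 95% interval -2.73 to 0.92) was the least certain. Naip6 was at 208, 215 and 149 CPM in IL-4Rα+/+ and 131, 99.7 and 150 CPM in IL-4Rα-/- replicates 1, 2 and 3. The genotypes just met, and the log2 fold change was -0.59 (SE 0.20, edgeR adjusted p = 0.618). Naip2 was at 183, 200 and 186 against 164, 165 and 168 CPM, without overlap, and its log2 fold change was -0.19 (SE 0.07, edgeR adjusted p = 0.618). Naip5 overlapped, with -0.36 (95% interval -0.84 to 0.12). The NAIP genes are close paralogs, so reads that match several of them could have been lost, and their levels are uncertain. Nlrc4 itself had a log2 fold change of -0.08.

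Among the partners of NLRP3, the ATP receptor gene P2rx7 (-0.20) and Txnip (-0.26) had unadjusted p-values under 0.05 with no overlap, and the kinase gene Nek7 had a log2 fold change of -0.10 (95% interval -0.32 to 0.12). Nlrc5, a regulator of MHC class I genes, was at 186, 216 and 161 CPM in IL-4Rα+/+ and 138, 156 and 158 CPM in IL-4Rα-/- replicates 1, 2 and 3, a log2 fold change of -0.32. Of the 12 genes that relay or restrain NOD1 and NOD2 signals, 3 were above 0 and 9 below, with a median of -0.17. Ripk2, the kinase both receptors share, differed by -0.10 (95% interval -0.44 to 0.23). The ubiquitin ligase gene Xiap (-0.25), the adaptor gene Tab2 (-0.26) and the deubiquitinase gene Cyld (-0.21) had unadjusted p-values under 0.05, all with an edgeR adjusted p of 0.618.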

How the data were processed

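Poly(A) RNA of monocytes, isolated from spleen by negative selection, was sequenced in 6 libraries. The authors aligned single-end reads to GRCm38 with STAR 2.6.1a and deposited raw counts per gene. The kept strand column was not given in the sources used here. Positions and lengths came from Gencode M21, which held 55240 of 55421 gene identifiers, where the authors used M23.

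Reads outside genes, mapped to several places or unmapped (21.1% to 22.8%) were left out. At this depth 1 count was 0.0338 to 0.0378 CPM. Genes passing filterByExpr (minimum count 10) were scaled by TMM and tested with edgeR 4.0.16 (R 4.3.3) by quasi-likelihood, and p-values were adjusted by Benjamini-Hochberg. Each SE was the absolute log2 fold change divided by the square root of the F statistic of the quasi-likelihood test. Intervals were built from it with the t distribution. Log2 CPM used a prior count of 2. The tests were tested on simulated data. Permutation tests were exact and two-sided. Alternatives used DESeq2 1.42.0, limma voom 3.58.1, other scalings, no filter, covariates, a replicate block, removal of a trend with length (loess span 0.5) and 1 library left out at a time. P-values and intervals measure the spread between these 6 mice, whose litters were not given in the labels.

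The genes and lists were chosen with earlier results of these data known. The text names the 9 genes, fixed pathway partners, every pathway gene with an unadjusted p under 0.05, and the gene pairs with the 2 highest and 2 lowest r. Nlrp1a and Il1r2 were added after their values were seen. Same-numbered libraries had correlations of 0.185, -0.271 and -0.296 in their deviations from the group means, so the numbers were not taken as pairs.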

Additional observations from a re-analysis of the deposited data

How the results depend on the processing

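No gene of the 9 and no pathway gene was called under any of 15 alternatives. Over these, the lowest adjusted p of any of the 9 was 0.334. DESeq2 called 80 genes in all, against 0 by edgeR, where 1120 had an unadjusted p under 0.05. The number of the 9 genes with an unadjusted p under 0.05 was 1 as reported, 2 with DESeq2 size factors, DESeq2, no filter, the replicate block or Xist as a covariate, 3 with the length trend removed, 4 with the Ly6C gene covariate, and 0 to 3 with 1 library left out (0 without IL-4Rα+/+ replicate 2 or IL-4Rα-/- replicate 1 or 3, 2 without IL-4Rα+/+ replicate 1, 3 without IL-4Rα-/- replicate 2). Over all genes the same count was 1119 with DESeq2 size factors, 1208 with DESeq2, 1392 with no filter, 765 with the replicate block, 910 with Xist, 926 with the length trend removed and 1513 with the Ly6C gene covariate. For pathway genes the number was 9 as reported, 3 with total counts only, 3 with the replicate block, 5 with Xist as a covariate, and 1 to 12 with 1 library left out. Over all genes it was 627 to 1724 with 1 library left out. Nlrp3 changed sign with the Ly6C gene covariate (-0.03) and ranged from -0.01 to 0.28 with 1 library left out, and Mefv ranged from -0.52 to 0.19. The other 7 genes stayed below 0 in all 15 alternatives, Pycard between -1.05 and -0.53, Nlrp1b between -0.71 and -0.39, Aim2 between -0.35 and -0.12 and Nod2 between -0.44 and -0.15. The causes were not tested. The replicate block gave log2 fold changes of -0.50 for Nlrp1b and -0.72 for Pycard and changed no call. With 3 mice per genotype, an interval such as that of Mefv spans both a fall and a rise of over 0.7 on the log2 scale. All 9 genes lay above 20 CPM in every library, over the floor of 3 counts.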
